A study of Homo sapiens and Mus musculus with 4 samples.

Results

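Messenger RNA levels of 10 heat shock chaperones were examined by bulk RNA sequencing in 4 established lymphoid cell lines. The genes were taken by symbol: HSPA1A, HSPA1B and HSPA8 (cytosolic HSP70), HSPA9 (mitochondrial HSP70), HSP90AA1 and HSP90AB1 (cytosolic HSP90), HSPD1 and HSPE1 (mitochondrial chaperonin), HSPH1 (HSP110) and DNAJB1 (a J-domain cochaperone). Each symbol has a human and a mouse gene in the table, which makes 20 genes of 60736 in all, 32738 of them human and 27998 mouse. Human genes were read in the human lines and mouse genes in the mouse lines.

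The human lines Jurkat and TALL104 both derive from T-cell leukaemias, of CD4+ type in Jurkat and CD8+ type in TALL104. The mouse line EL4 derives from a CD4+ T-cell lymphoma, and the mouse line IVA12 is a B-cell hybridoma. All 4 lines came from a cell bank, and neither the labels nor the methods name an engineered allele, a heat shock or a drug other than antibiotics in the medium. Jurkat was grown in RPMI-1640 with fetal bovine serum and penicillin-streptomycin, and TALL104 in IMDM with more serum and interleukin-2. EL4 was grown in RPMI-1640 with serum and 2-mercaptoethanol, and IVA12 in DMEM with serum and penicillin-streptomycin. The authors describe TALL104 cells as smaller than the other lines, harder to culture, slow to grow and of limited viability. Line, medium and culture state therefore cannot be told apart. There was 1 library per line and no replicate, so the spread between cultures is unknown and no test was run. The values are FPKM, fragments scaled by gene length and by library total. The totals recovered from the FPKM were between 25286728 and 34783047 reads per library. FPKM is relative to the whole library, so a difference in it cannot be told apart from a difference in total RNA per cell.

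The T-cell labels were borne out by the marker genes, and the B-cell label in part. Of 7 T-cell genes, the lowest in the human lines was CD5, at 12.5 FPKM in TALL104, and EL4 lacked only Cd7, at 0 FPKM. In IVA12, Jchain stood at 1289 FPKM and Mzb1 at 499 FPKM, and 6 of 7 T-cell genes were more than 1.5-fold higher in EL4. The B-cell antigen receptor gene Cd79a, however, was at 0.054 FPKM in IVA12, whereas CD79A reached 16.5 FPKM in Jurkat and 24.6 FPKM in TALL104. The summed level of 4 myeloid markers was between 0.119 and 1.65 FPKM across the 4 libraries.

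Chaperones bind proteins that are unfolded and hold or fold them with the energy of ATP. J-domain cochaperones such as DNAJB1 bring clients to HSP70 and start its ATPase cycle, HSP110 proteins such as HSPH1 exchange its nucleotide, and HSP90 takes over clients such as kinases and steroid receptors near their native state. In mitochondria, HSPA9 helps to pull in and fold imported proteins, and HSPD1 forms a barrel that HSPE1 closes as a lid. HSPA8 and HSP90AB1 are known as constitutive forms, and HSPA1A, HSPA1B, HSP90AA1, HSPH1 and DNAJB1 as forms that heat shock factor 1 induces under stress. That factor binds repeats of a short unit with GAA at its core, set in alternating orientation.

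The promoter sequences of the human genes are shown to set this repeat beside the values. RefSeq windows on GRCh38.p14, from 250 bases before to 50 bases after each transcription start, were searched on both strands for a pair of inverted units, GAANNTTC or TTCNNGAA, and for a run of 3 units, GAANNTTCNNGAA or TTCNNGAANNTTC. Each run of 3 holds 2 overlapping pairs. All 10 genes had a window, 16 windows in all. A pair was present in 9 of the 16 windows, against 13.5% of all 35116 windows, and a run of 3 in 4 of the 16, against 0.490% of all windows. The genes with a run of 3 were HSPA8, HSP90AA1, HSP90AB1 and HSPD1. The genes HSPA1A, HSPA1B, DNAJB1 and HSPA9 had a pair and no run of 3, and no window of HSPE1 or HSPH1 held these letters. The HSPE1 window begins at chr2:197500129, and the HSPD1 match, within chr2:197500061-197500090, lies upstream of it and was not counted for HSPE1. The 120 bases before the start are given 5′ to 3′ on the strand of the gene for 6 genes, with the 30 bases that hold the distant HSPD1 match, and capitals mark the units and the bases between them. Where a gene had several windows, the window with the most matches is shown.
HSPA1A, chr6:31815423-31815542, plus strand: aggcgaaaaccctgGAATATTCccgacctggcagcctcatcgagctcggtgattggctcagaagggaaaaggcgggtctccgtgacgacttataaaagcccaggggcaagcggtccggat
HSPA1B, chr6:31827618-31827737, plus strand: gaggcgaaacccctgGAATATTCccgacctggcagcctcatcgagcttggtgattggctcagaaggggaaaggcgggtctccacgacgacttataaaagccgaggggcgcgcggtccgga
HSPA8, chr11:123062137-123062256, minus strand: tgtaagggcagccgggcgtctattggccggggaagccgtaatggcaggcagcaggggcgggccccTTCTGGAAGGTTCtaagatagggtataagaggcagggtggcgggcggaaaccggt
HSP90AA1, chr14:102087045-102087164, minus strand: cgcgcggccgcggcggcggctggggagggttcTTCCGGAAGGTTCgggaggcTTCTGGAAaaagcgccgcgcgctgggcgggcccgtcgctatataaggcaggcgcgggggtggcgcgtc
HSP90AB1, chr6:44247823-44247942, plus strand: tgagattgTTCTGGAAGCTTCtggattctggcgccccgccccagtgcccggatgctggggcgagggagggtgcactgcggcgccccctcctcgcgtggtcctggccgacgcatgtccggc
DNAJB1, chr19:14518398-14518517, minus strand: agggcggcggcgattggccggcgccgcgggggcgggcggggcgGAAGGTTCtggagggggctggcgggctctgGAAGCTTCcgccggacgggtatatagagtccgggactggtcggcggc
HSPD1, chr2:197500061-197500090, minus strand: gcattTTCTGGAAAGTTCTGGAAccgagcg

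The pair lay 106 bases before the start in HSPA1A and 105 bases before it in HSPA1B. Over the 250 bases before their starts, these 2 promoters were identical at 235 of 249 aligned positions, or 94.4%. HSPA8, HSP90AB1 and HSPD1 each held 2 runs of 3, which overlapped in HSPD1, beginning 245 and 240 bases before the start. They began 230 and 55 bases before the start in HSPA8 and 165 and 112 bases before it in HSP90AB1. A match is a description of the letters only, and binding was not measured in these libraries.

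**Figure D1:**
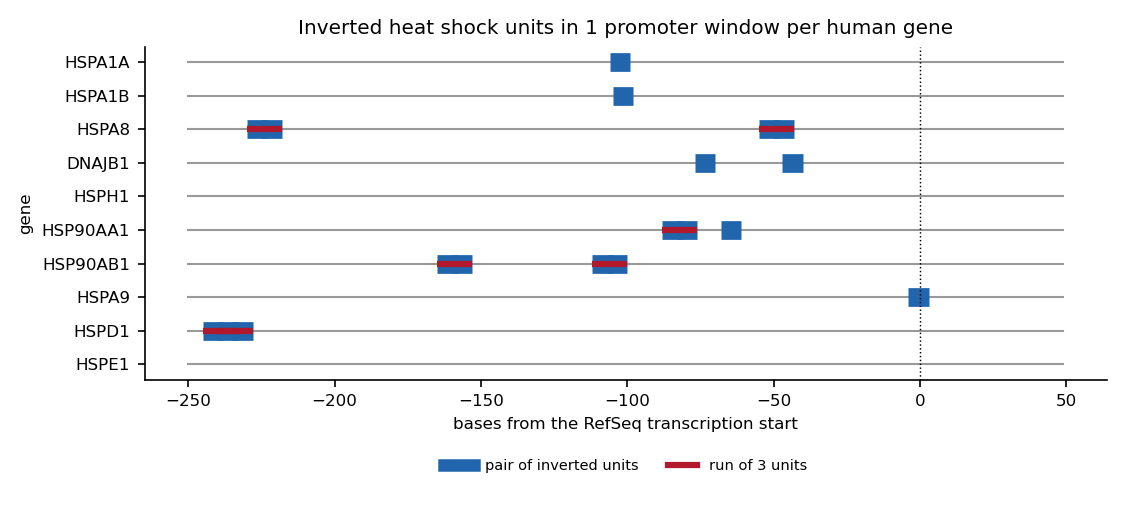
Positions of inverted heat shock units in 1 RefSeq promoter window for each of the 10 human genes, with the distance in bases from the transcription start (dotted line at 0) on the horizontal axis. Thick blue blocks are pairs of units and thin red lines are runs of 3; matches in HSPA8, HSP90AA1, HSP90AB1, DNAJB1, HSPA1A and HSPA1B lie before the start, that of HSPA9 spans it, HSPD1 has its 2 overlapping runs at the far end of the window, and the lines of HSPH1 and HSPE1 are empty.

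The human comparison placed the CD4+ line Jurkat against the CD8+ line TALL104. A gene was counted as different above 1.5-fold on FPKM + 1, a scale that draws the ratio of a low gene toward 1. Of the 10 chaperones, 8 were higher in Jurkat, 1 (HSPA1A) was higher in TALL104, and 1 (HSPA1B) lay within 1.5-fold. Among all human genes, 13.8% passed this line toward Jurkat and 11.4% toward TALL104. Most chaperones are abundant, and among the 3420 human genes with at least 20 FPKM in either line the shares were 42.3% and 28.9%, although a gene that reached this level in only 1 line was bound to differ more. The median log2 ratio of the 10 chaperones was 0.98, and that of all human genes was 0, or 0.31 over the genes with at least 20 FPKM. Only 20689 of the 32738 human genes were above 0 in any library. The median of all human genes was held at 0 by genes without reads and stayed there under every rescaling, so it says little about expressed genes.

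The mouse comparison placed the T line EL4 against the B hybridoma IVA12. None of the 10 chaperones passed 1.5-fold in either direction, with 8 of the 10 at 1 FPKM or more in either line. Hspa1a and Hspa1b had no reads in either line and so no ratio. The log2 ratios of the other 8 on FPKM + 1 lay between -0.24 and 0.44, with a median of 0.08. Among all mouse genes 9.75% were higher in EL4 and 11.2% in IVA12, and among the 3596 mouse genes with at least 20 FPKM in either line the shares were 22.7% and 25.4%. The 10 chaperones together held 1.51% of the mouse FPKM in each of the mouse lines, 1.27% of the human FPKM in Jurkat and 0.484% in TALL104.

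**Figure D2:**
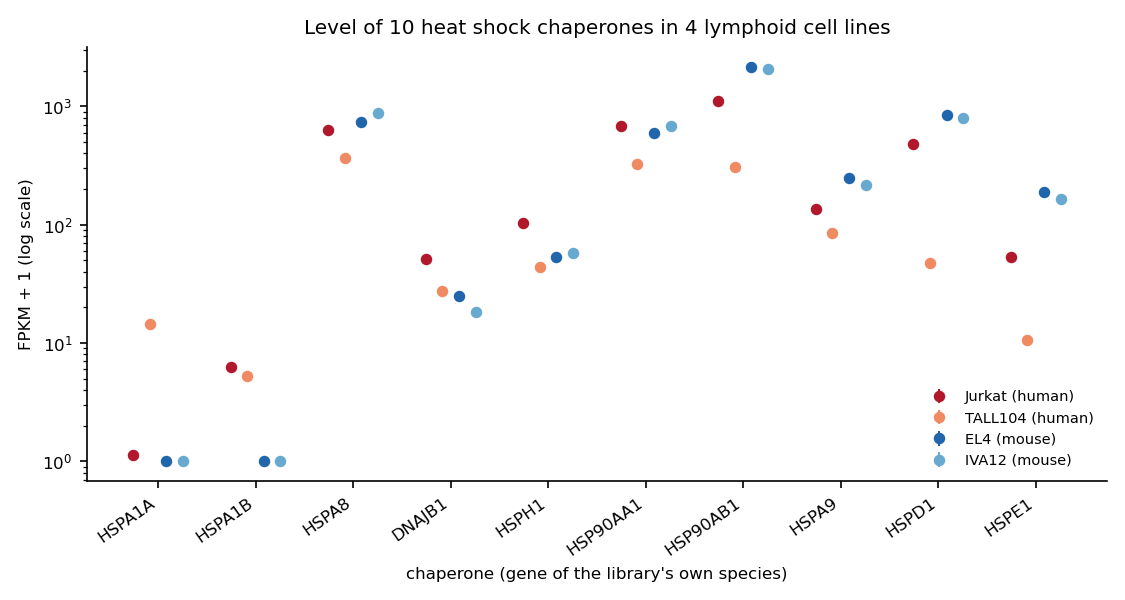
Level of each chaperone, as FPKM + 1 on a log axis, in Jurkat and TALL104 (human genes, red and orange) and EL4 and IVA12 (mouse genes, dark and light blue), with 1 point per library; the 95% Poisson counting intervals are mostly narrower than the points. TALL104 is the lowest of the 4 libraries for HSPA8, HSPH1, both HSP90 genes, HSPA9, HSPD1 and HSPE1, and EL4 and IVA12 lie close together throughout.

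HSPA8, the constitutive cytosolic HSP70, was the most abundant of the HSP70 genes listed here in every line. Jurkat had 628 FPKM, TALL104 365, EL4 739 and IVA12 873. TALL104 was lowest and IVA12 highest, and no 95% Poisson counting intervals of neighbours in this order overlapped. The Jurkat to TALL104 ratio of FPKM was 1.72 (exact binomial 95% interval 1.70 to 1.74), and the EL4 to IVA12 ratio was 0.846 (0.838 to 0.854). All intervals here cover the counting of reads only, since reads are not independent molecules. In the annotation, HSPA8 (ENSG00000109971) spans chr11:122928197-122933938 on hg19 and Hspa8 (ENSMUSG00000015656) spans chr9:40800984-40810087 on mm10. Of the 100-base windows of the Hspa8 transcripts, 57.1% also occur in other mouse genes, chiefly processed pseudogenes, against 8.46% for HSPA8. How reads with several alignments were counted is not given in the sources used here, so the mouse level is uncertain.

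HSPA1A, a stress-inducible HSP70, was the only chaperone that was more than 1.5-fold higher in TALL104. It stood at 0.118 FPKM in Jurkat, from 10 reads, and at 13.5 FPKM in TALL104, from 931 reads. The log2 ratio on FPKM + 1 was -3.70, and the plain TALL104 to Jurkat ratio was 114 (61.8 to 239). Its copy HSPA1B, which encodes nearly the same protein, was at 5.20 FPKM in Jurkat (456 reads) and 4.24 FPKM in TALL104 (303 reads), and the intervals of these levels overlapped. The ratio of the 2 HSPA1B values, Jurkat over TALL104, was 1.23 (1.06 to 1.42).

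The HSPA1 copies carry a limit of their own. The genes lie on chr6 of hg19, HSPA1A (ENSG00000204389) at 31783320-31785723 and HSPA1B (ENSG00000204388) at 31795515-31798031, both on the plus strand. Of the 100-base windows of HSPA1A, 69.5% also occur in HSPA1B, so the division of reads between the copies depends on how shared reads were treated, and 36.6% of the HSPA1B exon bases also lie in an annotated long noncoding RNA gene of the same strand. Summed over both copies, 466 reads (5.32 FPKM) fell in Jurkat and 1234 reads (17.7 FPKM) in TALL104. The copies thus made up 0.840% of the summed FPKM of HSPA1A, HSPA1B and HSPA8 in Jurkat and 4.64% in TALL104. Other HSP70 genes were left out of this sum. HSPA1L, a related HSP70 gene on the opposite strand with 259 bases between it and HSPA1A, was at 0.033 FPKM in Jurkat (3 reads) and 3.75 FPKM in TALL104 (279 reads).

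Hspa1a and Hspa1b had 0 reads in both EL4 and IVA12. A count of 0 allows up to 3 reads, which is 0.031 FPKM (EL4) and 0.040 FPKM (IVA12) for Hspa1a, and 0.033 and 0.042 FPKM for Hspa1b. Of the 100-base windows of these transcripts, 56.5% and 49.9% occur in other mouse genes, chiefly in each other. The genes lie on chr17 of mm10, Hspa1a (ENSMUSG00000091971) at 34969190-34972156 and Hspa1b (ENSMUSG00000090877) at 34956436-34959238. No fold is given for them.

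DNAJB1, which delivers clients to HSP70, had 50.2 FPKM in Jurkat and 26.5 FPKM in TALL104, with 24.0 (EL4) and 17.4 FPKM (IVA12) in mouse. Jurkat was highest and IVA12 lowest, with no overlap of counting intervals between neighbours. The ratio was 1.89 (1.81 to 1.98) in the human pair and 1.38 (1.28 to 1.495) in the mouse pair, which was the largest mouse difference among the 10 chaperones and below 1.5-fold. Between these partners, the HSPA8 to DNAJB1 ratio of FPKM was 12.5 in Jurkat and 13.7 in TALL104, against 50.2 in IVA12 and 30.8 in EL4. DNAJB1 (ENSG00000132002) lies at chr19:14625581-14671203 on hg19 and Dnajb1 (ENSMUSG00000005483) at chr8:83608193-83612653 on mm10, and 6.85% of the DNAJB1 exon bases lie in genes of the opposite strand, chiefly TECR.

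HSPH1, the nucleotide exchange factor, reached 102 FPKM in Jurkat, 43.1 in TALL104 and 52.1 and 56.5 FPKM in EL4 and IVA12. Jurkat stood above the other 3 lines, which lay close together. The ratio was 2.37 (2.30 to 2.45) for Jurkat over TALL104 and 0.921 (0.897 to 0.945) for EL4 over IVA12. None of its 100-base windows occurred in another gene in either species. HSPH1 (ENSG00000120694) is at chr13:31709110-31736525 on hg19 and Hsph1 (ENSMUSG00000029657) at chr5:149614287-149636376 on mm10.

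The HSP90 genes held more than any other members, between 51.5% (TALL104) and 56.7% (EL4) of the summed FPKM of the 10 chaperones. HSP90AB1, the constitutive form, was at 1103 FPKM in Jurkat and 306 FPKM in TALL104, and its mouse gene at 2155 (EL4) and 2081 FPKM (IVA12), and it ranked 14, 59, 9 and 8 among the genes of the species in these libraries. The level in TALL104 was apart from the other 3, and the Jurkat to TALL104 ratio was 3.599 (3.55 to 3.65) against 1.04 (1.03 to 1.04) for EL4 over IVA12.

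HSP90AA1, the inducible form, was at 676 FPKM in Jurkat and 322 FPKM in TALL104, and at 591 (EL4) and 682 FPKM (IVA12) in mouse. TALL104 was again lowest, and the counting intervals of Jurkat and IVA12 overlapped. The ratio was 2.10 (2.07 to 2.13) in the human and 0.867 (0.858 to 0.876) in the mouse pair. The constitutive form therefore exceeded the inducible form 1.63-fold in Jurkat, 3.64-fold in EL4 and 3.05-fold in IVA12, whereas in TALL104 the HSP90AB1 to HSP90AA1 ratio was 0.950. Of the Hsp90aa1 windows, 40.7% occur in other mouse genes, against 4.29% for HSP90AA1, 1.38% for HSP90AB1 and 0% for Hsp90ab1, so the mouse ratio is the less certain. On hg19 HSP90AA1 (ENSG00000080824) is at chr14:102547079-102606036 and HSP90AB1 (ENSG00000096384) at chr6:44213903-44221625. On mm10 Hsp90aa1 (ENSMUSG00000021270) is at chr12:110690605-110702728 and Hsp90ab1 (ENSMUSG00000023944) at chr17:45567775-45573271.

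The mitochondrial chaperonin showed the largest differences toward Jurkat. HSPD1, the barrel subunit, was at 476 FPKM in Jurkat (70235 reads) and 46.3 FPKM in TALL104 (5571 reads), a ratio of 10.3 (9.997 to 10.6) and a log2 ratio on FPKM + 1 of 3.33. The mouse lines had 848 FPKM (EL4) and 789 FPKM (IVA12), a ratio of 1.07 (1.06 to 1.09). TALL104 was the lowest of the 4, at rank 726 of the human genes, whereas HSPD1 ranked 38 in Jurkat and 39 in each mouse line.

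HSPE1, the lid subunit, was at 52.8 FPKM in Jurkat and 9.62 FPKM in TALL104, against 188 (EL4) and 163 FPKM (IVA12). The order of the 4 lines was that of HSPD1, with no overlap between neighbours. Its ratio was 5.49 (5.01 to 6.02) in the human pair and 1.15 (1.12 to 1.19) in the mouse pair. The HSPD1 to HSPE1 ratio was 9.01 in Jurkat and 4.81, 4.51 and 4.85 in TALL104, EL4 and IVA12. The genes share a start region in opposite orientation, HSPD1 (ENSG00000144381) at chr2:198351308-198381461 and HSPE1 (ENSG00000115541) at chr2:198364864-198368173 on hg19, and 17.9% of the HSPE1 exon bases lie in HSPD1 or in the readthrough gene HSPE1-MOB4. The readthrough gene had 0.388 FPKM in Jurkat and 0.198 FPKM in TALL104, and its partner MOB4 had 9.17 and 4.95 FPKM. The strand setting of the counting is not given in the sources used here, so reads in the shared bases cannot be told apart. The mouse genes Hspd1 (ENSMUSG00000025980, chr1:55077835-55088243 on mm10) and Hspe1 (ENSMUSG00000073676, chr1:55088132-55091307) share 112 exon bases, and Mob4 was at 11.7 FPKM (EL4) and 11.3 FPKM (IVA12).

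HSPA9, the mitochondrial HSP70, differed less than the chaperonin. Jurkat had 133.5 FPKM, TALL104 84.4, EL4 245 and IVA12 217, which is the same order of lines as for HSPD1, HSPE1 and HSP90AB1. Its ratio was 1.58 (1.55 to 1.62) in the human pair, just past the 1.5-fold line, and 1.13 (1.11 to 1.15) in the mouse pair. After scaling the human lines by the median ratio of expressed genes its log2 ratio was 0.55, within 1.5-fold. HSPA9 (ENSG00000113013) lies at chr5:137889445-137911364 on hg19 and Hspa9 (ENSMUSG00000024359) at chr18:34937414-34954357 on mm10. The 3 mitochondrial members together held 20.5% (Jurkat), 11.5% (TALL104), 26.5% (EL4) and 24.0% (IVA12) of the summed FPKM of the 10 chaperones.

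**Figure D3:**
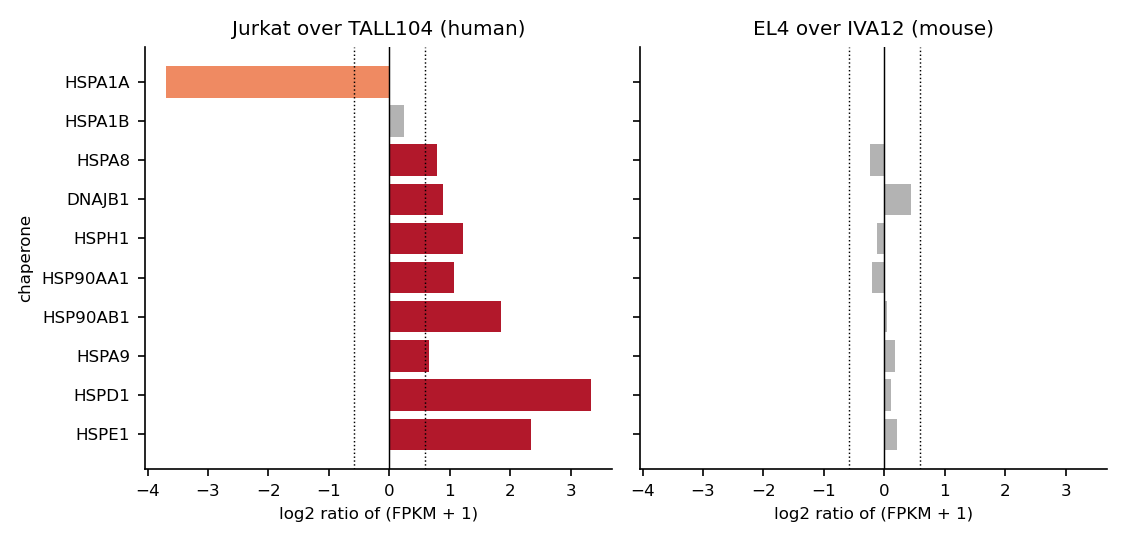
Log2 ratio of FPKM + 1 for each of the 10 chaperones, Jurkat over TALL104 on the left and EL4 over IVA12 on the right, with 1 library per line. Dotted lines mark 1.5-fold; red bars pass it toward Jurkat, the orange bar (HSPA1A, at -3.70) passes it toward TALL104, and grey bars, all of those in the mouse pair, lie within it.

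Levels were set side by side across species only as a description, since the gene lengths, the annotation and the summed FPKM of own-species genes differ between human and mouse. TALL104 was the lowest of the 4 libraries for 7 of the 10 chaperones. Jurkat was the highest for HSPA1B, HSPH1 and DNAJB1, EL4 for HSPA9, HSP90AB1, HSPD1 and HSPE1, IVA12 for HSPA8 and HSP90AA1, and TALL104 for HSPA1A. Neighbours with overlapping counting intervals were Jurkat and IVA12 for HSP90AA1, Jurkat and TALL104 for HSPA1B, and the mouse lines at 0 for both HSPA1 copies.

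The 3 chaperones with the widest range over the 4 libraries were HSPD1, HSPE1 and HSPA1A. Likeness was measured as the Euclidean distance between centred log2(FPKM + 1) profiles over the 4 libraries, among 6959 genes that share a symbol between the species and reach 10 FPKM in 1 library. The nearest to HSPD1 was KIF20A at a distance of 0.141, at 28.4 FPKM (Jurkat), 1.73 (TALL104), 47.0 (EL4) and 49.4 (IVA12). AURKB (0.285) and BUB1B (0.351) followed. The nearest to HSPE1 were HELLS (0.207), GCSH (0.216) and ABHD17C (0.303). For HSPA1A they were LACC1 (0.074), NECTIN3 (0.124) and RAB27B (0.157), each between 12.2 and 12.7 FPKM in TALL104 and below 0.2 FPKM in the other 3 lines. With 4 points per profile, many genes lie near any pattern.

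The partners of these chaperones were followed in 8 lists of 61 human genes. In the human pair 36 of 61 were more than 1.5-fold higher in Jurkat, 3 were higher in TALL104 and 22 lay within, with a median log2 ratio of 0.75. The shares toward Jurkat and TALL104 were 13.8% and 11.4% of all human genes, and 42.3% and 28.9% of the human genes that reached 20 FPKM. Between EL4 and IVA12, 58 of 60 listed genes were measured, of which 6 were higher in EL4, 13 higher in IVA12 and 39 within, 2 of these with no reads in either line. The median log2 ratio of the 56 with reads was -0.19. The shares toward EL4 and IVA12 were 9.75% and 11.2% of all mouse genes, and 22.7% and 25.4% of the mouse genes that reached 20 FPKM. These shares are the background for each list below, and a list count near them, such as 4 of 9 or 2 of 9, is not a result about that list. The lists are shown by gene in the plot of partner ratios, and the examples named below are those 2 per list and pair whose log2 ratio is furthest from 0.

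Among regulators, HSF1, the stress-responsive heat shock factor, was at 13.5 FPKM in Jurkat and 8.03 FPKM in TALL104, a ratio of 1.68 (1.56 to 1.80). HSF2 was at 17.1 and 10.2 FPKM, and HSF4 at 1.49 and 1.46 FPKM. HSBP1, a small protein that binds HSF1, was 2.67-fold higher in Jurkat (2.48 to 2.87), at 11.1 and 4.15 FPKM. Among the mouse lines, Hsf1 was at 21.8 FPKM (EL4) and 24.8 FPKM (IVA12), Hsf2 at 10.4 and 12.0 FPKM and Hsf4 at 0.248 and 0.790 FPKM, all within 1.5-fold on FPKM + 1. Hsbp1 was at 76.8 FPKM (EL4) and 24.2 FPKM (IVA12).

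Among the other HSP70 and HSP110 genes, 3 of 7 were higher in Jurkat and 1 in TALL104. HSPA4L, an HSP110 relative of HSPH1, was at 6.33 FPKM in Jurkat and had 3 reads in TALL104, a ratio of 695 (237.5 to 3372). HSPA1L went the other way, with a TALL104 to Jurkat ratio of 114 (38.6 to 557). In the mouse pair Hspa4l was at 6.81 FPKM (EL4) and 2.88 FPKM (IVA12), and Hspa2 was at 6.16 and 1.37 FPKM. These were the 2 of 5 measured mouse genes past 1.5-fold.

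Among the other J-domain cochaperones, 4 of 9 were higher in Jurkat and 2 in TALL104. DNAJA1, a partner of HSPA8, was at 292 FPKM in Jurkat and 84.4 FPKM in TALL104, a ratio of 3.46 (3.37 to 3.56). DNAJA4 had 1 read in Jurkat and 214 in TALL104, where it reached 1.15 FPKM, a TALL104 to Jurkat ratio of 263 (46.6 to 10419.9). For mouse, 2 of 9 passed, both toward IVA12: Dnajc2, a ribosome-bound cochaperone, at 47.8 FPKM (EL4) and 91.6 FPKM (IVA12), and Dnajb6 at 15.5 and 27.2 FPKM.

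Of the nucleotide exchange factors and the BAG family, 5 of 6 were higher in Jurkat and the sixth, BAG1, lay within 1.5-fold. BAG2 was at 8.88 FPKM in Jurkat and 1.33 FPKM in TALL104 (ratio 6.68, 5.87 to 7.63), and BAG3, which links HSP70 to selective autophagy, was at 10.1 and 2.05 FPKM (4.91, 4.15 to 5.85). Bag2 had the opposite sign between the mouse lines, at 8.22 FPKM (EL4) and 20.7 FPKM (IVA12), and Hspbp1 was at 26.4 and 14.3 FPKM. The other 4 of 6 mouse genes lay within 1.5-fold.

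HSP90 cochaperones were higher in Jurkat for 7 of 13 genes and higher in TALL104 for none. FKBP4, an immunophilin of steroid receptor complexes, was at 80.2 FPKM in Jurkat and 16.8 FPKM in TALL104, a ratio of 4.76 (4.54 to 5.004). STIP1, which joins HSP70 to HSP90, was at 114.6 and 44.7 FPKM, a ratio of 2.56 (2.49 to 2.64). Between EL4 and IVA12, 1 of 13 was higher in EL4 and 4 were higher in IVA12. Fkbp5 was at 24.1 FPKM (EL4) and 6.46 FPKM (IVA12), and Ppid, a cyclophilin, at 18.6 and 65.0 FPKM.

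The cytosolic chaperonin TRiC, which folds actin and tubulin, had all 8 of its subunit genes above 1.5-fold in Jurkat, with log2 ratios between 1.52 and 2.26. TCP1 was at 180.7 FPKM in Jurkat and 36.9 FPKM in TALL104 (ratio 4.90, 4.76 to 5.05), and CCT2 at 140.8 and 32.7 FPKM (4.31, 4.17 to 4.46). In the mouse pair 6 of 7 measured subunits lay within 1.5-fold. Cct2 was at 418 FPKM (EL4) and 547 FPKM (IVA12), and Cct8 passed toward IVA12 at 194 and 426 FPKM.

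Of the mitochondrial chaperone partners and proteases, 5 of 9 were higher in Jurkat and none in TALL104. LONP1, a matrix protease, was at 35.9 FPKM in Jurkat and 9.77 FPKM in TALL104 (ratio 3.68, 3.47 to 3.90), and TRAP1, the mitochondrial HSP90, at 29.1 and 8.28 FPKM (3.52, 3.30 to 3.74). For EL4 against IVA12, 2 of 9 passed, both toward IVA12. Grpel1, the nucleotide exchange factor of HSPA9, was at 26.9 FPKM (EL4) and 44.1 FPKM (IVA12), and Clpp, a matrix protease subunit, at 21.7 and 35.3 FPKM.

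Of the 5 genes listed under small heat shock proteins, all but HSPB11 were low. HSPB11 was placed in this list by its symbol, which for human is only a synonym in RefSeq. Its values are therefore not taken as a result about the family. In the human pair 1 of 5 passed 1.5-fold, toward Jurkat. HSPB1 was at 5.03 FPKM in Jurkat and 0.907 FPKM in TALL104 (ratio 5.55, 3.496 to 9.24), HSPB11 at 13.3 and 12.6 FPKM, and the other 3 of 5 human genes were below 0.1 FPKM in both lines. Hspb8 had 0 reads in EL4 and 152 reads in IVA12 (3.08 FPKM). Of the 5 mouse genes, 3 were higher in IVA12 and 1, Hspb11, in EL4. Hspb11 was at 17.5 FPKM (EL4) and 4.66 FPKM (IVA12).

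**Figure D4:**
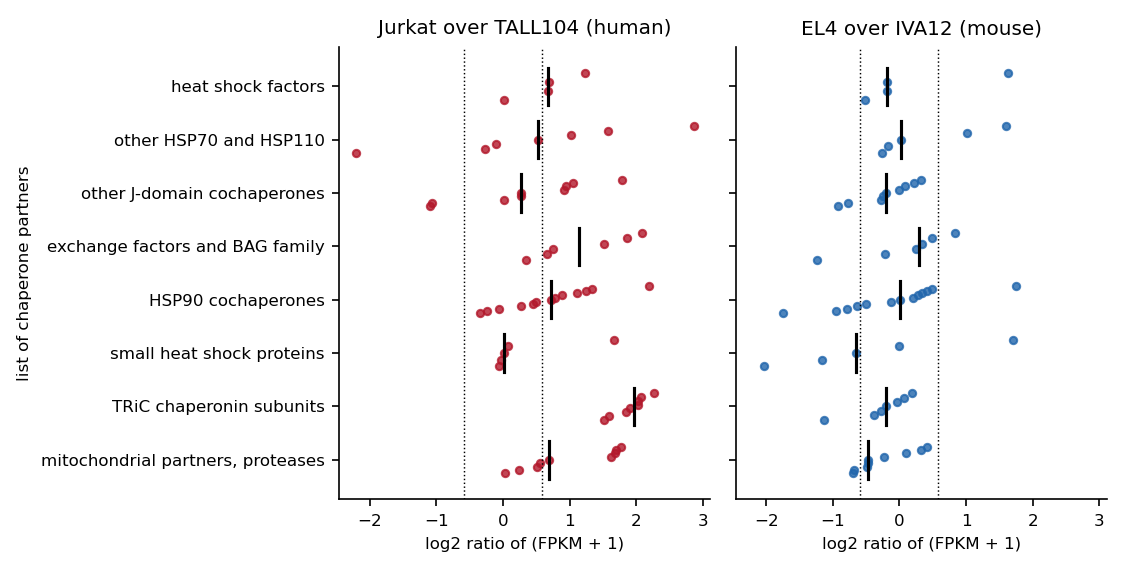
Log2 ratio of FPKM + 1 for each gene of 8 lists of chaperone partners, Jurkat over TALL104 on the left and EL4 over IVA12 on the right; each point is 1 gene, black bars are list medians and dotted lines mark 1.5-fold. All 8 TRiC subunits lie between 1.52 and 2.26 in the human pair, and most mouse points lie within the dotted lines.

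Proliferation markers were compared between Jurkat and TALL104, and between EL4 and IVA12. All 6 markers were more than 1.5-fold higher in Jurkat, with log2 ratios from 1.23 (PCNA) to 4.41 (CCNB1), and their summed level was 692 FPKM in Jurkat and 141 FPKM in TALL104. None of them was at 0 in either line. For mouse, 3 of the 6 were higher in EL4 and 3 lay within 1.5-fold, with sums of 866 and 655 FPKM. Mitochondrially encoded genes took a larger share of the human FPKM in TALL104 (20.6%) than in Jurkat (14.9%), and the mouse shares were 5.04% (EL4) and 4.79% (IVA12). The part of these differences in the chaperone ratios was not tested, apart from the rescaling without mitochondrially encoded genes.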

How the data were processed

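Poly(A) RNA libraries of the 4 lines were made by the authors with a stranded kit, aligned with STAR 2.5.1b to a combined hg19 and mm10 reference and counted with featureCounts 1.6.3. The deposited values are FPKM. Strand setting, gene lengths and how multiply aligned reads were treated are not given in the sources used here.

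Reads and library totals were recovered from the FPKM, since each value is a whole number of reads over a gene length, with lengths tried up to 300000 bases and a relative tolerance of 1e-11. All genes above 0 gave whole reads. The implied length matched the annotation in 22.2% (human) and 72.8% (mouse) of cases, and elsewhere reads are the smallest whole numbers possible, so they may lack a common factor. The recovery, ratios and intervals were tested on simulated data in which the length of each gene was known. That test therefore does not cover genes whose implied length did not match the annotation, which are most human genes.

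Lines were compared within a species on log2 (FPKM + 1) without a test. Ratios with 95% intervals (exact binomial) and levels (exact Poisson) used recovered reads without the added 1. No count model was used, as it needs replicates. Symbols and positions came from GENCODE human release 44 on GRCh37 and mouse release M21, promoter sequences from RefSeq. Exon overlaps and shared windows also came from these GENCODE releases. They are newer than the annotation the paper names for its reference, so the overlaps need not hold for the gene models that were counted. A synonym in RefSeq matched HSPB11. Mouse Hspa14 and Cct6a were not analysed here. Named genes were all 10 chaperones, every heat shock factor, the 2 genes with the largest ratio per list and pair, and the 3 nearest profiles. The members and lists were chosen with earlier results of these data known. Python 3.11.15, NumPy 2.4.6, pandas 2.3.3, SciPy 1.17.1 and matplotlib 3.10.9 were used.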

Additional observations from a re-analysis of the deposited data

Results flagged for a closer look

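Each library also held a few reads on the chaperone genes of the other species, above the 3 reads that a count of 0 allows. There were 158 reads on the mouse genes in Jurkat, 120 in TALL104, 99 on the human genes in EL4 and 364 in IVA12. These equal 0.040%, 0.096%, 0.020% and 0.089% of the reads on the chaperones of the library's own species. The highest was HSP90AB1 in each library, with 55 (Jurkat), 46 (TALL104), 23 (EL4) and 115 reads (IVA12), or at most 1.63 FPKM. No 100-base window of any of the 20 genes occurred in the gene of the same symbol in the other species. The source of these reads was not tested.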

How the results depend on the processing

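The count of chaperones higher in Jurkat was 8 with pseudocounts of 0.1 and 0.01, after scaling to equal own-species totals and with a minimum of 1 FPKM. It was 7 after scaling by the median ratio or to totals without mitochondrially encoded genes, where HSPA9 fell within 1.5-fold (log2 ratio 0.55 under each), and 5 with a 2-fold line. The count higher in TALL104 stayed at 1 and both mouse counts at 0 under all 7 alternatives. The share of own-species FPKM moved from 1.27% to 1.49% without mitochondrially encoded genes, 1.15% as reads and 1.28% with the 1 FPKM minimum in Jurkat. In TALL104 it moved from 0.484% to 0.609%, 0.448% and 0.487% under the same settings. In EL4 it moved from 1.51% to 1.58% without mitochondrially encoded genes and 1.59% as reads, and in IVA12 to 1.59%, 1.63% and 1.52%. The shares differ by more than a counting interval because their denominators or units differ by construction. Of 118 recomputed ratios of single genes, 97 stayed within the counting interval of the main value and 21 moved beyond it. No gene past 1.5-fold changed sign, and genes within 1.5-fold could not be counted as a change of sign. The 118 include Hspa1a and Hspa1b, which have no reads and stayed at 0 under every setting. The HSPA1A log2 ratio was -3.70 with a pseudocount of 1 and -5.96 with 0.1, -6.72 with 0.01 and -6.84 from reads alone. The ratio from reads and the background over genes with at least 20 FPKM were added after the data were seen. No paired analysis was possible because there is 1 library per line, and for the same reason no library could be left out. Depth limits genes with few reads: among the chaperones HSPA1A in Jurkat (10 reads) and the mouse HSPA1 copies (0 reads), and among the named partners HSPA4L in TALL104 (3 reads), HSPA1L (3) and DNAJA4 (1) in Jurkat and Hspb8 in EL4 (0).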
